A study of Mus musculus with 8 samples.

Results

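Collagens, laminins and integrins were followed in gastrocnemius (GAS) muscle in which *Mytho*, the autophagy gene listed as D230025D16Rik, had been knocked down. Members were the genes whose symbol has the form of a collagen chain (Col, number, a, number), a laminin chain (Lama, Lamb or Lamc with a number) or an integrin gene (Itga or Itgb with a suffix). The rule found 86 genes on 87 of the 22206 probe sets of a Clariom S Mouse array, namely 44 collagen, 11 laminin and 31 integrin genes. *Itgb1bp1* had 2 probe sets, of which the one with the higher mean signal was used. Of the 31 integrin genes, 4 carry the name but are not receptor subunits (*Itgb1bp1*, *Itgb1bp2*, *Itgb3bp* and *Itgbl1*).

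Both groups were GAS muscles of male wild-type C57/Bl6j mice, labelled as 14 weeks of age. They were taken 3 weeks after the muscle had been injected with an adeno-associated viral vector (AAV) of serotype 1. AAV sh-RNA MYTHO carried a short hairpin RNA against the *Mytho* transcript under the U6 promoter, which is not restricted to muscle fibres. AAV sh-RNA scrmb carried a scrambled hairpin under the same promoter and went into the opposite leg of the animal. There were 4 arrays per group, and the legs of one animal are named by the letters A to D. Values are log2 signals, in which a step of 1 is a doubling, and log2 fold changes are MYTHO minus scrmb. Knockdown was visible in every animal: the D230025D16Rik log2 signal read 11.35, 11.31, 10.78 and 11.05 in scrmb (A to D) and 8.16, 8.20, 8.80 and 8.08 in MYTHO (log2 fold change of -2.81, standard error (SE) 0.21, limma adjusted p 0.00044).

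Collagens are triple helices of 3 chains that form the fibrils and networks of the extracellular matrix. Fibrillar collagens, led in muscle by types I and III, carry tension in the connective tissue around fibres and in tendon, and type IV forms the sheet of the basement membrane. Laminins are trimers of an alpha, a beta and a gamma chain that lie on the fibre surface as the other main layer of that membrane. Integrins are receptors made of an alpha and a beta subunit that bind these proteins outside the cell and the cytoskeleton inside it.

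The first question was whether any of these genes differed between MYTHO and scrmb muscle. No member passed a limma adjusted p under 0.05, the lowest being 0.307 for *Col14a1*. Over all probe sets, 0.00901% were called higher and 0.018% lower at this threshold. No member reached a 2-fold change, and the log2 fold changes ran from -0.61 for *Col10a1* to 0.67 for *Itgad*. The threshold of the study, a 2-fold change or more at a p under 0.05 before adjustment, was met by 0.261% of all probe sets in the higher and 1.25% in the lower direction. With the fold minimum set to 1.5, 0 members were higher and 2 lower (*Col10a1* and *Itgbl1*), against 2.46% and 4.99% of all probe sets.

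At an unadjusted p under 0.05, 1 member was higher (*Col14a1*, 1.16% of the 86) and 2 were lower (*Col10a1* and *Itgbl1*, 2.33%). The corresponding shares of all probe sets were 4.81% higher and 7.58% lower, so the members' shares lay below both. The median log2 fold change was -0.01 for collagens, 0.21 for laminins and 0.05 for integrins, against -0.005 over all probe sets. It was positive in 49 of the 86 members (57%) and negative in 36 (41.9%), with *Col4a5* at 0, against 49% and 50.6% of all probe sets. Single genes varied about as much as the rest of the array: the median SD over the 4 muscles of a group was 0.246 in scrmb and 0.294 in MYTHO for members, and 0.298 and 0.293 for all probe sets.

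The arrays bounded most of these changes. For 79 of the 86 members (91.9%) the 95% interval of the log2 fold change lay between -1 and 1, a 2-fold change either way, as it did for 84.2% of all probe sets. The 7 members whose interval reached beyond were *Col10a1*, *Col1a2*, *Col2a1*, *Col3a1*, *Itgad*, *Itgbl1* and *Lamb3*. The table gives no detection call, and 42 of the 86 members had a mean signal under the median of the table, where small changes are hard to measure.

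**Figure D1:**
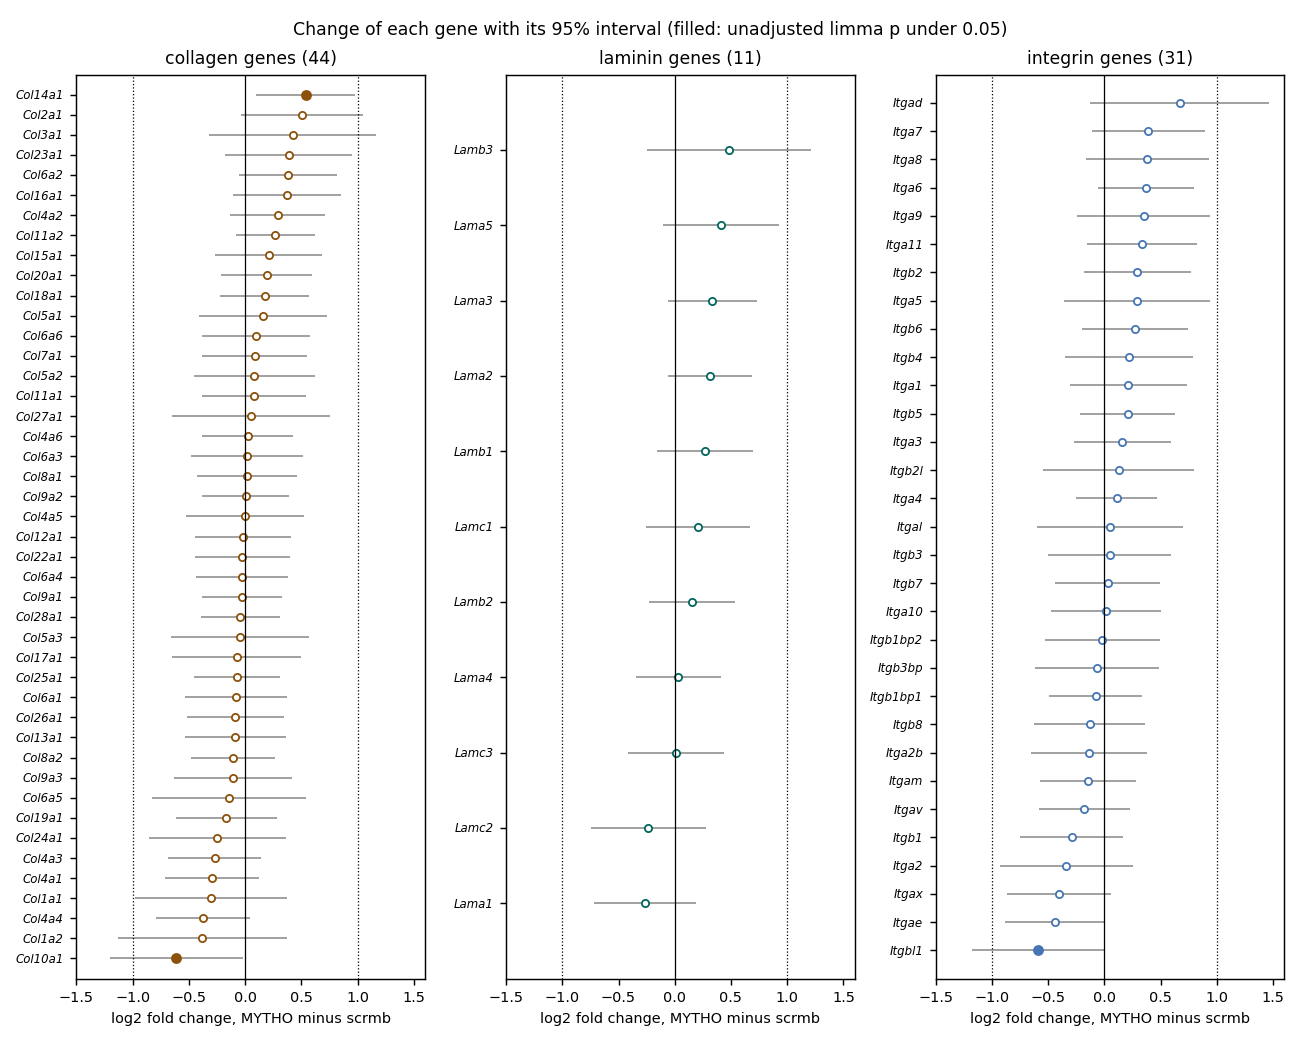
Log2 fold change (MYTHO minus scrmb, x axis) of each of the 86 genes, sorted within the 3 families, with 95% intervals from limma; dotted lines mark a 2-fold change and filled points an unadjusted p under 0.05. *Col14a1* at 0.54, *Col10a1* at -0.61 and *Itgbl1* at -0.59 are the filled points, and 9 of the 11 laminin points lie above 0.

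Among the fibrillar collagens, the chains of type I gave no separation of the groups. *Col1a1* had log2 signals of 10.00, 8.75, 9.12 and 9.54 in scrmb and 9.77, 8.54, 9.12 and 8.78 in MYTHO, always in the order A to D. Its partner chain *Col1a2* had 11.27, 10.54, 10.44 and 10.67 in scrmb and 11.31, 9.60, 9.83 and 10.66 in MYTHO. For both genes the groups overlapped, and animal A was highest in both legs. The log2 fold changes were -0.30 (SE 0.31, limma adjusted p 0.752) for *Col1a1* and -0.38 (SE 0.34, limma adjusted p 0.711) for *Col1a2*.

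*Col3a1*, which forms the finer fibrils of the tissue around fibres and vessels, had log2 signals of 9.46, 9.63, 9.78 and 9.76 in scrmb and 11.35, 9.64, 9.72 and 9.61 in MYTHO. A single muscle, MYTHO of animal A, stood 1.89 above the scrmb leg of the same animal, and the differences in the other animals ran from -0.15 to 0.01. The log2 fold change of 0.42 (SE 0.34, limma adjusted p 0.671) was -0.0008 without that muscle. In the same MYTHO muscle 22 of the 44 collagen genes had the highest signal of the group, and in the MYTHO muscle of animal B 22 had the lowest. The mean of 4 adipocyte markers (*Adipoq*, *Plin1*, *Cidec* and *Lep*) was 9.85 in MYTHO of animal A, against 5.67, 7.20 and 5.93 in B, C and D. In scrmb it ran from 5.22 to 8.29, while *Col3a1* stayed between 9.46 and 9.78. The mean of 7 fibroblast markers was 10.78 in MYTHO of animal A, against 10.46 to 10.56 in the other MYTHO muscles and 10.39 to 10.80 in scrmb. Their part in the collagen values was not tested, and in whole muscle a change in the number of cells of a type and a change in RNA per cell cannot be told apart.

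The 250 bases before the start of *Col1a2* and *Col3a1* are shown for these fibrillar chains, and those of *Col10a1* for the lower of the called collagens. They come from RefSeq windows on GRCm38.p6, the assembly of the mm10 build of the array annotation, on the strand of the gene. Capitals mark matches on either strand to TATAAA (the TATA box), GGGCGG (the GC box) and CCAAT (the CCAAT box), motifs that do not overlap one another here.

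Col1a2, chr6:4505368-4505617, plus strand: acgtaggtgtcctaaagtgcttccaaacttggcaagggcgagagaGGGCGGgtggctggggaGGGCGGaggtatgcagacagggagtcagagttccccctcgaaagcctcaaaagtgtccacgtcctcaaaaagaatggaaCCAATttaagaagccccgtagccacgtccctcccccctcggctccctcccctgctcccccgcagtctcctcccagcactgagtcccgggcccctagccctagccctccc

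Col3a1, chr1:45311288-45311537, plus strand: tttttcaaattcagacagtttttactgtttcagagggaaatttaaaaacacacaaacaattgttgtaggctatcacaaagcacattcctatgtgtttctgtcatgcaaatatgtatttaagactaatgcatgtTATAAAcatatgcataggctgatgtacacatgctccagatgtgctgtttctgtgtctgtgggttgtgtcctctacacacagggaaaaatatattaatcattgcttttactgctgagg

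Col10a1, chr10:34389731-34389980, plus strand: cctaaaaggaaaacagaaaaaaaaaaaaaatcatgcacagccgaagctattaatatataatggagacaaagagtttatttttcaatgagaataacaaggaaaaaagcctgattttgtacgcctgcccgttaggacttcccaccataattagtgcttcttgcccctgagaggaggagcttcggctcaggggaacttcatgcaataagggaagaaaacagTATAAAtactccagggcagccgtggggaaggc

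In *Col10a1* the TATAAA match began 32 bases before the gene start, in *Col3a1* 117 bases before it, and in *Col1a2* the CCAAT match began 109 bases before it. Windows were at hand for 62 of the 86 members, 68 windows in all. In their first 250 bases TATAAA was found in 7.35%, GGGCGG in 47.1% and CCAAT in 26.5%, against 12.4%, 32.7% and 33.8% of all 32851 windows of the reference. These matches are letters in a window and were not tested for use in muscle.

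*Col10a1*, a network collagen best known from growing cartilage (chromosome 10, 34389981 to 34397085), had log2 signals of 5.62, 5.40, 5.70 and 4.74 in scrmb and 4.96, 4.30, 4.48 and 5.28 in MYTHO. It was lower in animals A, B and C and higher in D, so the groups overlapped. The log2 fold change was -0.61 (SE 0.27), with an unadjusted p of 0.0431 and a limma adjusted p of 0.386. With animal as a block the unadjusted limma p was 0.0646. It was also not under 0.05 after quantile normalization, or without scrmb of animals A, B or C or MYTHO of B or C. All 8 signals lay below the table median, which ran from 6.39 to 6.47 over the arrays.

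The other fibrillar collagens ran from -0.25 (*Col24a1*) to 0.51 (*Col2a1*) in log2 fold change. *Col11a2*, a minor chain of cartilage fibrils that is named here because its groups did not overlap, chosen after its values were seen, had log2 signals of 7.36, 7.31, 7.25 and 7.23 in scrmb and 7.41, 7.53, 7.75 and 7.54 in MYTHO. Its log2 fold change was 0.27 (SE 0.16, limma adjusted p 0.539). Groups without overlap occurred in 2 members, *Col11a2* and *Lama2*, both higher (2.33% of 86, against 2.59% of all probe sets), and in 0 members in the lower direction (3.87% of all probe sets). In either direction the shares were 2.33% of members and 6.46% of all probe sets.

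**Figure D2:**
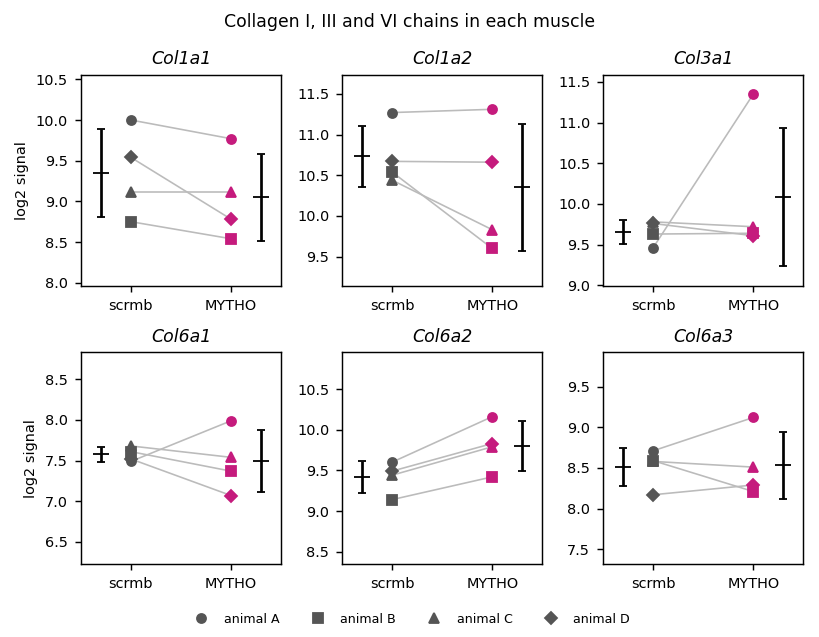
Log2 signal (y axis) of type I, III and VI collagen chains in scrmb (grey) and MYTHO (pink) muscle of animals A to D, with the legs of one animal joined and the group mean ± SD (n = 4) beside the points. For *Col3a1* the MYTHO muscle of animal A lies at 11.35 and the other 7 muscles between 9.46 and 9.78, and *Col6a2* is higher in the MYTHO leg of all 4 animals.

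Type IV collagen, the network of the basement membrane, is encoded by 6 genes that lie as head-to-head pairs. In GRCm38.p6 *Col4a1* (chromosome 8, 11198423 to 11312889, minus strand) and *Col4a2* (11312805 to 11449287, plus strand) overlap by 85 bases at their starts. *Col4a4* and *Col4a3* on chromosome 1 overlap by 114 bases, and *Col4a6* and *Col4a5* on the X chromosome lie 1274 bases apart. The 187 bases before the annotated span of *Col4a1*, which lie within that of *Col4a2*, are shown because they lie next to the overlapping starts of the pair. The capitals mark a reverse match to CCAAT, the only match to the 3 motifs in it.

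Col4a1, chr8:11312890-11313076, minus strand: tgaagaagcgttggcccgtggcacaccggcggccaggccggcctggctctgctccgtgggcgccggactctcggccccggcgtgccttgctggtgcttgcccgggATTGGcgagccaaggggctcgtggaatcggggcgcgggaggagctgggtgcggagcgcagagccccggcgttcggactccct

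The chains of the main muscle network, *Col4a1* and *Col4a2*, differed in sign. *Col4a1* had log2 signals of 6.97, 7.01, 6.73 and 6.89 in scrmb and 7.05, 6.55, 6.39 and 6.45 in MYTHO, a log2 fold change of -0.29 (SE 0.19, limma adjusted p 0.582). *Col4a2* had 8.30, 8.08, 8.30 and 8.44 in scrmb and 8.91, 8.60, 8.18 and 8.59 in MYTHO, a log2 fold change of 0.29 (SE 0.19, limma adjusted p 0.586). *Col4a1* was lower in 3 of 4 animals and *Col4a2* higher in 3 of 4, but the groups overlapped and neither gene had an unadjusted p under 0.05. The SD was 0.124 in scrmb and 0.301 in MYTHO for *Col4a1*, and 0.149 and 0.299 for *Col4a2*. The difference between the 2 genes was not tested.

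In the second pair both genes had negative values. *Col4a4* had log2 signals of 5.69, 6.09, 6.07 and 5.90 in scrmb and 5.70, 5.23, 5.48 and 5.84 in MYTHO, a log2 fold change of -0.38 (SE 0.19, limma adjusted p 0.457). *Col4a3* was at -0.27 (SE 0.19, limma adjusted p 0.609), with values that overlapped between groups. In the third pair *Col4a5* and *Col4a6* stood at 0.00 and 0.02 (limma adjusted p 1.00 and 0.979). The remaining network genes *Col8a1* and *Col8a2*, known from vessel walls and the cornea, were at 0.02 and -0.11.

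**Figure D3:**
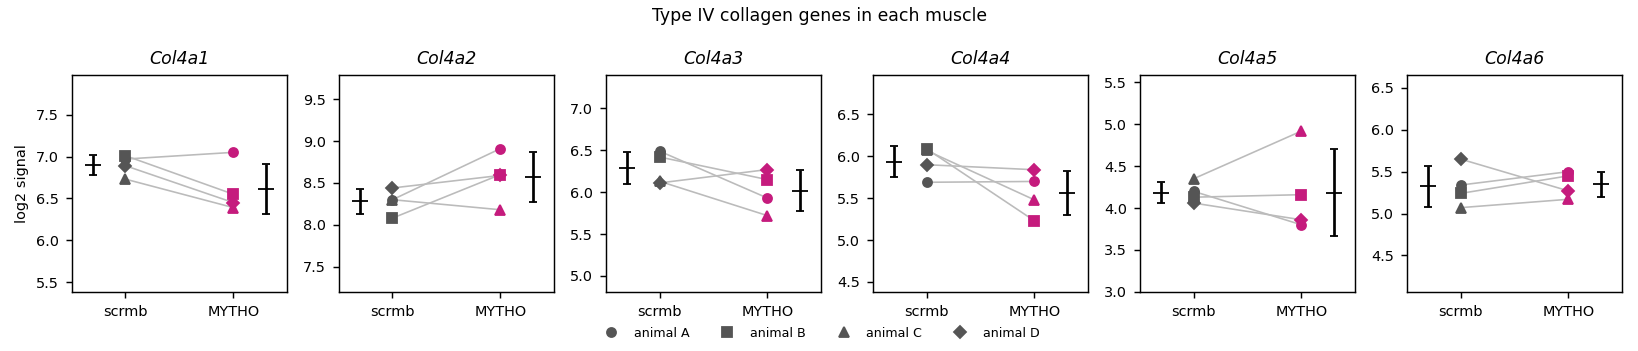
Log2 signal (y axis) of the 6 type IV collagen genes in scrmb (grey) and MYTHO (pink) muscle of animals A to D, legs of one animal joined, with the group mean ± SD (n = 4). The group means of *Col4a1* and *Col4a2* differ by -0.29 and 0.29, and the groups overlap in every panel.

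Endothelial cells carry a type IV collagen membrane of their own, and 5 of their markers were followed. The mean of 5 endothelial markers (*Pecam1*, *Cdh5*, *Kdr*, *Emcn* and *Tek*) ran from 10.17 to 10.75 in scrmb and from 10.89 to 11.08 in MYTHO without overlap. Of these 5, all had a positive log2 fold change, against 49% of all probe sets. At an unadjusted p under 0.05, 2 were higher, against 4.81% of all probe sets, and none passed adjustment. These were *Pecam1* at 0.45 (limma adjusted p 0.366) and *Tek* at 0.86 (limma adjusted p 0.213). Their part in the basement membrane values was not tested.

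Type VI collagen forms beaded filaments that tie the basement membrane to the matrix around the fibre, and defects in its chains cause inherited muscle disease. *Col6a2* had log2 signals of 9.60, 9.14, 9.44 and 9.49 in scrmb and 10.16, 9.42, 9.79 and 9.83 in MYTHO. It was higher in the MYTHO leg of all 4 animals, by 0.28 to 0.56, with groups that overlapped. The log2 fold change was 0.38 (SE 0.20, unadjusted p 0.0796, limma adjusted p 0.469). *Col6a1* and *Col6a3*, which assemble with it, were at -0.08 (limma adjusted p 0.910) and 0.02 (limma adjusted p 0.985). In both, the MYTHO muscle of animal A was the highest of the group, at 7.99 and 9.12. *Col6a4*, *Col6a5* and *Col6a6* ran from -0.14 to 0.10.

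Of the 9 fibril-associated collagens, which decorate the surface of fibrils without forming them, *Col14a1* (chromosome 15, 55307644 to 55520803) had the lowest p of all members. Its log2 signals were 4.61, 5.05, 5.34 and 4.72 in scrmb and 5.56, 5.27, 5.64 and 5.41 in MYTHO. Every *Col14a1* signal lay below the table median. It was higher in 4 of 4 animals, by 0.22 to 0.95, although the highest scrmb value exceeded the lowest MYTHO value. Scrmb muscle averaged 4.93 ± 0.33 (SD, n = 4) and MYTHO muscle 5.47 ± 0.16 (SD, n = 4), a log2 fold change of 0.54 (SE 0.20, 95% interval 0.10 to 0.98). The unadjusted p was 0.0202 and the limma adjusted p 0.307, and the former was not under 0.05 without scrmb of animals A or D or MYTHO of C. The other 8 fibril-associated genes ran from -0.17 (*Col19a1*) to 0.37 (*Col16a1*), and *Col22a1*, a collagen of the junction between muscle and tendon, was at -0.03.

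None of the remaining collagens passed the test. *Col15a1* and *Col18a1*, the collagens with heparan sulfate or chondroitin sulfate chains on the outer face of basement membranes, were at 0.21 and 0.18. The 4 transmembrane collagens ran from -0.09 to 0.39 (*Col23a1*), the lowest being *Col13a1*, which is known from the neuromuscular junction. *Col7a1*, whose probe set also names a microRNA, was at 0.09, and *Col26a1* and *Col28a1* were at -0.09 and -0.04.

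Laminin genes had mostly positive values, none of which passed the test. Of the 11, 9 had a positive log2 fold change (81.8%, against 49% of all probe sets). At an unadjusted p under 0.05 there were 0 laminin genes in either direction, against 12.4% of all probe sets. *Lama2*, the alpha chain of the mature fibre whose loss causes a congenital muscular dystrophy (chromosome 10, 26981285 to 27617191), had log2 signals of 10.19, 10.42, 9.94 and 10.29 in scrmb and 10.48, 10.63, 10.43 and 10.56 in MYTHO. All 4 MYTHO muscles exceeded all scrmb muscles, the closest by 0.01, and the MYTHO leg was higher in each animal by 0.21 to 0.49. The log2 fold change was 0.32 (SE 0.17, unadjusted p 0.0921, limma adjusted p 0.493).

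The chains that join *Lama2* in the membrane around fibres were also positive in log2 fold change. *Lamb1* was at 0.27 (SE 0.20, limma adjusted p 0.626), with 7.20, 7.63, 6.86 and 7.42 in scrmb and 7.60, 7.60, 7.58 and 7.41 in MYTHO. *Lamc1* was at 0.21 (SE 0.21, limma adjusted p 0.744), with 9.90, 10.30, 10.07 and 9.89 in scrmb and 10.63, 10.30, 9.75 and 10.32 in MYTHO. *Lamb2*, the beta chain concentrated at the neuromuscular junction, was at 0.16 (SE 0.18, limma adjusted p 0.778). For these 3 genes the groups overlapped.

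Of the other alpha chains, *Lama4*, found around vessels and at the junction, was at 0.03, *Lama5* at 0.41 and *Lama3* at 0.34. *Lamb3*, a chain of skin laminin, had the highest log2 fold change of the family at 0.48 (SE 0.33, limma adjusted p 0.604), and its value rested on the MYTHO muscle of animal B. That muscle read 5.11, against 3.33, 3.56 and 3.80 in A, C and D and 3.23 to 3.78 in scrmb. *Lama1*, the alpha chain of early embryos, had the lowest at -0.26 (SE 0.21, limma adjusted p 0.662). The mean of 6 markers of the fibres themselves ran from 15.27 to 15.59 in scrmb and from 15.65 to 15.82 in MYTHO. Of the 6, 2 were higher at an unadjusted p under 0.05 (33.3%, against 4.81% of all probe sets), *Dmd* at 1.02 (limma adjusted p 0.130) and *Mb* at 0.55 (limma adjusted p 0.326). *Des* was at 0.30, *Cav3* at 0.11 and *Ckm* at -0.04, and *Acta1* was at the 19.93 ceiling of the scale on all arrays. Genes of slow fibres had a positive log2 fold change in 8 of 8 (*Myh7*, *Tnnt1*, *Tnni1*, *Tnnc1*, *Myl2*, *Myl3*, *Atp2a2* and *Tpm3*) and a median of 1.59. Of these, 7 were at least 2-fold higher at an unadjusted p under 0.05, against 0.261% of all probe sets, and 0 passed a limma adjusted p under 0.05. The number at an unadjusted p under 0.05 was 0 without MYTHO of animal C, 1 without MYTHO of A, 2 without MYTHO of B or scrmb of B or D, 3 without scrmb of C and 8 without scrmb of A or MYTHO of D. It was also 0 with eBayes run with trend and robust, and 8 with animal as a block (block limma p from 0.00109 to 0.0181). The part of fibre and slow-fibre genes in the laminin values was not tested.

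Of the integrin receptor subunits, the laminin-binding alpha genes were the class with 3 of 3 positive values. *Itga7*, the main laminin receptor subunit of adult muscle fibres (chromosome 10, 128933421 to 128958286), had log2 signals of 8.30, 8.39, 8.36 and 8.85 in scrmb and 9.06, 9.31, 8.74 and 8.35 in MYTHO. It was higher by 0.38 to 0.92 in animals A, B and C and lower by 0.50 in D, whose scrmb muscle was the highest of its group and whose MYTHO muscle was the lowest. The log2 fold change was 0.39 (SE 0.23, limma adjusted p 0.529). *Itga6* and *Itga3*, which also bind laminin, were at 0.37 and 0.16 (limma adjusted p 0.474 and 0.797).

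*Itgb1*, the beta subunit with which *Itga7* and most matrix-binding alpha subunits pair (chromosome 8, 128685654 to 128733579), ran the other way. Its log2 signals were 14.69, 14.95, 14.95 and 14.19 in scrmb and 14.58, 14.40, 14.15 and 14.49 in MYTHO. It was lower in animals A, B and C and higher in D, a log2 fold change of -0.29 (SE 0.21, limma adjusted p 0.625). Animal D thus went against the other 3 animals for both subunits. The slow-fibre genes, with a median log2 fold change of 1.59, had median differences of 1.09, 2.42, 2.835 and 0.14 in animals A to D, positive in each. In the MYTHO muscle of animal D the mean of 8 slow-fibre genes was 11.68, against 14.43 to 14.88 in the other MYTHO muscles, and the scrmb means were 13.70, 11.91, 11.94 and 11.61 in A to D. The part of slow fibres in the integrin values was not tested.

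The collagen-binding alpha genes ran from -0.34 (*Itga2*) to 0.34 (*Itga11*). The probe set of *Itga1* also names *Pelo*, so its 0.21 cannot be given to 1 gene. Among the alpha subunits that bind the RGD motif of matrix proteins, *Itga5*, the fibronectin receptor subunit, was at 0.29 (SE 0.30, limma adjusted p 0.747). It had log2 signals of 4.07, 4.90, 4.20 and 4.65 in scrmb and 5.30, 5.13, 4.61 and 3.95 in MYTHO, so that D again ran against the other animals. *Itga8*, *Itgav* and *Itga2b* were at 0.38, -0.18 and -0.14.

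*Itgad*, the alpha D subunit of leukocytes, had the highest log2 fold change of all members at 0.67 (SE 0.37, unadjusted p 0.0935, limma adjusted p 0.495). Its log2 signals were 3.57, 4.46, 5.21 and 4.78 in scrmb and 4.84, 4.46, 5.79 and 5.60 in MYTHO, a wide spread in both groups with equal values in both legs of animal B. Every *Itgad* signal lay below the table median. With animal as a block the unadjusted limma p was 0.0179 and the limma adjusted p 0.292. Of the 7 leukocyte and alpha4-type alpha genes, 4 were positive and 3 negative. Beside *Itgad*, *Itga9* was at 0.35, *Itga4* at 0.11 and *Itgal* at 0.05, while *Itgae* was at -0.44, *Itgax* at -0.40 and *Itgam* at -0.15. *Itgb2*, the beta subunit of the alpha D, L, M and X subunits, was at 0.29, and none of these genes had an unadjusted p under 0.05. The mean of 5 macrophage markers was 6.97 to 7.35 in scrmb and 6.98 to 7.48 in MYTHO, and that of 5 T cell markers 5.62 to 5.88 and 5.38 to 5.88.

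Of the beta genes other than *Itgb1* and *Itgb2*, 6 of 7 were positive, from -0.13 (*Itgb8*) to 0.28 (*Itgb6*), and none had an unadjusted p under 0.05. The 4 genes that carry an integrin name without being subunits were all negative. *Itgbl1* (chromosome 14, 123659937 to 123978865), which codes for a secreted protein with repeats like those of beta subunits, had log2 signals of 8.32, 8.29, 7.67 and 8.26 in scrmb and 8.19, 7.19, 7.02 and 7.77 in MYTHO. It was lower in 4 of 4 animals, by 0.13 to 1.10, and the groups overlapped. The log2 fold change was -0.59 (SE 0.27, unadjusted p 0.0478, limma adjusted p 0.395), and with animal as a block the unadjusted limma p was 0.0193. It was not under 0.05 after median centring, or without scrmb of animals A, B or D or MYTHO of B or C. *Itgb1bp2*, which codes for the muscle chaperone melusin, *Itgb3bp*, a centromere protein gene, and *Itgb1bp1*, a regulator of beta subunits, were at -0.02, -0.07 and -0.08. The second probe set of *Itgb1bp1* was at -0.08 as well.

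**Figure D4:**
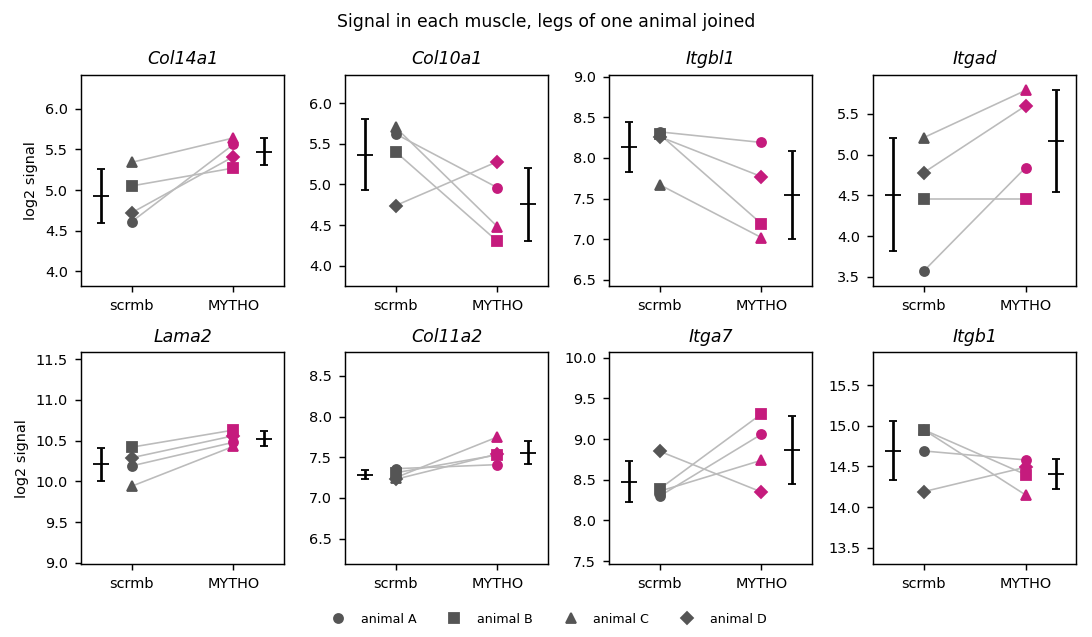
Log2 signal (y axis) of 8 members in scrmb (grey) and MYTHO (pink) muscle of animals A to D, with the legs of one animal joined and the group mean ± SD (n = 4). *Lama2* and *Col11a2* are the members without overlap between groups, and the line of animal D slopes against the others for *Itga7*, *Itgb1* and *Col10a1*.

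The last question concerned the genes around these families, taken from 4 lists of 83 distinct genes in all. At an unadjusted p under 0.05, 2 of the 83 were higher (2.41%) and 3 lower (3.61%), below the whole-array shares given above, and none passed a limma adjusted p under 0.05. Of 28 enzymes and chaperones that make and cross-link collagen, 22 had a positive log2 fold change (78.6%, against 49% of all probe sets), with a median of 0.16. Only *P4ha3*, a prolyl hydroxylase subunit, had an unadjusted p under 0.05, at 0.50 (SE 0.22, limma adjusted p 0.392). With animal as a block its unadjusted limma p was 0.0611, and *Adamts3*, a procollagen protease at 0.52, was the gene under 0.05 (block limma p 0.0244).

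Of 22 partner proteins of the matrix, 0 were higher and 2 lower (9.09%, against 7.58% of all probe sets). *Dcn*, the proteoglycan decorin that binds collagen fibrils, had log2 signals of 17.99, 18.06, 17.89 and 17.63 in scrmb and 17.28, 17.01, 17.28 and 17.62 in MYTHO. It was lower in every animal and without overlap, though by 0.01 in D, with a log2 fold change of -0.60 (SE 0.19, unadjusted p 0.0085, limma adjusted p 0.236). *Fn1*, which codes for fibronectin, was at -0.55 (SE 0.23, limma adjusted p 0.370). With animal as a block the count was 1 higher and 1 lower. *Fn1* then had an unadjusted limma p of 0.0665, and *Npnt*, which codes for the integrin ligand nephronectin, one of 0.0421 at 0.50. *Dcn* is also on the fibroblast marker list, and was the 1 gene of 7 there with an unadjusted p under 0.05 (14.3%, against 7.58% of all probe sets lower). Of these 7, 3 were positive in log2 fold change (42.9%, against 49% of all probe sets).

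Of 11 genes of matrix turnover, 1 was lower (9.09%, against 7.58% of all probe sets), *Ctsk*, which codes for the collagen-degrading protease cathepsin K, at -0.45 (SE 0.18, limma adjusted p 0.352). Of 22 genes of the complex that links integrins to actin, 18 had a positive log2 fold change (81.8%, against 49% of all probe sets), with a median of 0.18. Higher at an unadjusted p under 0.05 was 1 of the 22 (4.55%, against 4.81% of all probe sets). This was *Lims2*, an adaptor bound to the integrin-linked kinase, at 0.67 (SE 0.21, unadjusted p 0.00886, limma adjusted p 0.238), higher in 4 of 4 animals. *Fermt3*, the kindlin of blood cells, joined it under 0.05 once animals were blocked (0.52, block limma p 0.0343). Tendon markers varied between muscles of both groups: the mean of 6 was 9.91, 8.81, 8.54 and 9.41 in scrmb and 9.23, 8.38, 8.73 and 9.28 in MYTHO, highest in animals A and D. Of these 6, 4 were negative in log2 fold change (66.7%, against 50.6% of all probe sets). Lower at an unadjusted p under 0.05 was 1 (16.7%, against 7.58% of all probe sets), *Kera*, which codes for keratocan, at -0.97 (SE 0.41, limma adjusted p 0.369). *Kera* was lower in animals A, B and C and higher in D. The means of 5 Schwann cell markers were 5.98 to 7.37 in scrmb and 5.83 to 6.36 in MYTHO. Those of 4 satellite cell markers were 5.20 to 5.64 and 5.46 to 5.60. Of these 4, 1 was higher at an unadjusted p under 0.05 (25%, against 4.81% of all probe sets). This was *Cdh15*, which codes for M-cadherin, at 0.51 (SE 0.21, limma adjusted p 0.347) and higher in 4 of 4 animals. *Pax7*, *Myf5* and *Vcam1* were at 0.0025, -0.12 and 0.08. The means of 4 neutrophil and platelet markers were 6.04 to 6.44 in scrmb and 5.91 to 6.41 in MYTHO.

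**Figure D5:**
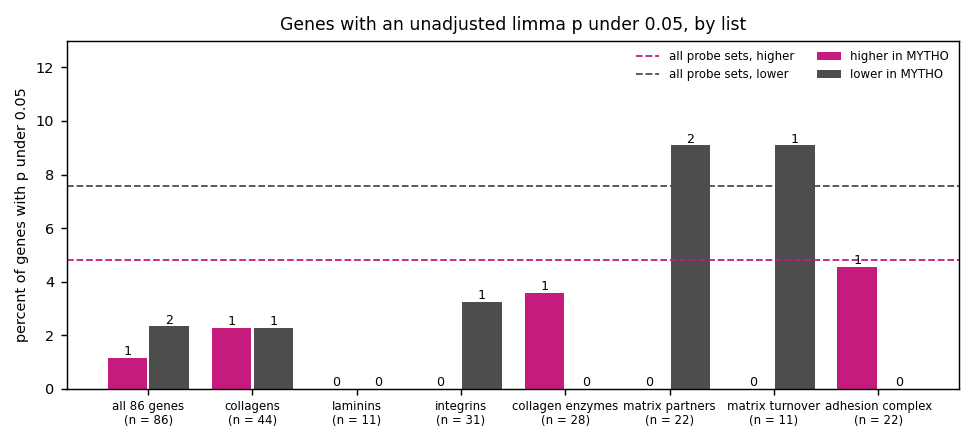
Percent of genes (y axis) with an unadjusted limma p under 0.05, higher (pink) or lower (grey) in MYTHO muscle, for the members, their 3 families and 4 lists of related genes, with the number of genes above each bar. Dashed lines give the shares of all probe sets on the array, 4.81% higher and 7.58% lower; the bars of the members lie under both.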

How the data were processed

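The data were 8 Clariom S Mouse arrays of total RNA from GAS muscle. The authors deposited log2 signals, 1 column per array, computed by the Transcriptome Analysis Console version 4.0.1 with default parameters (SST-RMA at gene level, per the column names), with annotation release 36 on mm10. The deposited group averages (log2), p-values and fold ratio are the authors' own comparison and were not used. The deposited log2 signals end at 19.93, and no member was at that ceiling. Of all rows, 836 name several genes. Precision is limited by 4 arrays per group, and p-values measure the spread between these muscles.

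The groups were tested by limma (version 3.58.1, run under R 4.3.3; lmFit and eBayes, no block, two-sided) on all 22206 probe sets, with Benjamini-Hochberg adjustment across the whole array. The fit was tested on simulated data. Columns were assigned to groups by name. Same-numbered columns are legs of one animal, per the injection scheme of the study, so animal was tried as a block. Deviations from the group means correlated at 0.00266, -0.00145, 0.135 and 0.0871 between the legs of animals A to D. The best match of a scrmb muscle was the MYTHO muscle of the same animal in C and D, but not in A and B. Gene spans were matched by symbol in RefSeq for GRCm38.p6 for all 86 members.

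A gene was represented by its probe set with the highest mean. Named were members with an unadjusted p under 0.05, the extremes of each family, the chains of the main muscle matrix proteins and receptors, and at most 3 genes per direction in a pathway list, at an unadjusted p under 0.05. Other genes with values stand there to complete a class or pair, and were added with their values seen. The members and lists were chosen with earlier results of these data known. Alternatives were quantile normalization, median centring, the upper 75% of probe sets by signal, eBayes with trend and robust, no saturated probe sets, animal as a fixed or random block, other choices of probe set, a fold minimum of 1.5 and leaving out each array.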

Additional observations from a re-analysis of the deposited data

Results flagged for a closer look

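In 90 groups of 4 muscles, covering the named genes and the means of families and lists, 10 had 1 muscle apart from the other 3 by more than the 95% critical value of Dixon's test. Chance gives about 1 in 20 such groups. In MYTHO muscle, *Col3a1* was 11.35 in animal A against 9.61 to 9.72 in the others, and the mean of the matrix partner genes was 9.97 in A against 9.79 to 9.81. *Lamb1* was 7.41 in animal D against 7.58 to 7.60, and the slow-fibre mean was 11.68 in D against 14.43 to 14.88. The satellite cell marker mean was 5.60 in animal B against 5.46 to 5.48, and D230025D16Rik was 8.80 in animal C against 8.08 to 8.20.

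In scrmb muscle, *Itga7* was 8.85 in animal D against 8.30 to 8.39, and *Itgbl1* was 7.67 in animal C against 8.26 to 8.32. The fibroblast marker mean was 10.39 in animal A against 10.73 to 10.80, and the slow-fibre mean was 13.70 in A against 11.61 to 11.94.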

How the results depend on the processing

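No alternative gave a member past an adjusted p under 0.05 or past the study threshold (0 higher and 0 lower, also without single arrays). With a fold minimum of 1.5 and an unadjusted p under 0.05 the counts were 0 higher and 2 lower. The counts at an unadjusted p under 0.05, 1 higher and 2 lower, became 2 and 1 after quantile normalization, after median centring and with animal as a replicate block, and the lower count was 1 in the upper 75% of probe sets. Without single arrays both counts ran from 0 to 4. Members called higher numbered 0 when scrmb A was left out, 2 when scrmb B was, 3 for scrmb C, MYTHO B or MYTHO C and 4 for MYTHO D. Members called lower numbered 4 when MYTHO A or MYTHO D was left out, 1 for scrmb A or scrmb C and 0 for scrmb B or MYTHO B. The family medians moved by less than the spread between animals, from -0.04 to 0.05 for collagens, 0.10 to 0.30 for laminins and 0.03 to 0.11 for integrins without single arrays. Scaling moved the median of all probe sets from -0.005 to at most 0.035.

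With animal as a replicate block, 4 pathway genes were higher in place of 2 (*Lims2*, *Adamts3*, *Npnt* and *Fermt3*, without *P4ha3*) and 2 lower in place of 3 (without *Fn1*). Marker genes became 14 higher and 4 lower in place of 12 and 2. With trend and robust, 7 marker genes were higher in place of 12, of which 0 in place of 7 were slow-fibre genes. Without single arrays, pathway genes ran from 1 to 6 higher and 1 to 5 lower, and marker genes ran from 4 to 13 higher and 1 to 6 lower. Of 371 values for 25 named members under alternatives, 363 kept their direction and their side of an adjusted p of 0.05 and 8 reversed, each without a single array and none called. *Col4a5*, at 0, was left out of this count, since it has no direction, and ran from -0.25 to 0.13. These were *Col3a1* (-0.0008 to 0.58 over the single-array fits), *Col4a6* (-0.0625 to 0.13), *Col6a1* (-0.25 to 0.0583) and *Col6a3* (-0.18 to 0.13). *Mytho* ran from -2.98 to -2.74 without single arrays. The cause was not tested.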
